A study of Mus musculus with 24 samples.

Results

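The muscle genes described here are 38 genes of calcium handling and excitation-contraction coupling, taken by symbol from the 54752 gene IDs in the deposited count tables. All 38 symbols were found, and all 38 passed the filter on low counts in every comparison, so each member has a test. In a muscle fibre an action potential runs down the transverse tubules, where the dihydropyridine receptor acts as voltage sensor. It is coupled at the triad to the ryanodine receptor, which releases calcium from the sarcoplasmic reticulum, and the SERCA pump takes the calcium back, where calsequestrin and other proteins buffer it. Small membrane peptides hold the pump back, store-operated channels refill the store from outside, and exchangers and plasma membrane pumps remove calcium from the cell.

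RNA came from the mouse gastrocnemius, the large calf muscle, in 24 libraries that form 8 groups of 3. All animals carried floxed Numb and Numbl, with genotype Numb(f/f)/NumbL(f/f), and 4 of the groups also carried HSA-MCM, a tamoxifen-activated Cre under a human skeletal actin promoter, so that it is made in muscle fibres. The groups are transgene females after tamoxifen and after vehicle, flox females after tamoxifen and after vehicle, transgene males after tamoxifen and after vehicle, and flox males after tamoxifen and after vehicle, where flox means no transgene. The sources used here give no age, dose or timing, and the design compares tamoxifen with vehicle with and without the recombinase. The 3 transgene male vehicle libraries carry that name in their titles, but tamoxifen in the treatment field. Grouping followed the title, and every result on transgene males, and every pooled result that holds them, rests on that reading. The 6 flox males are titled WT.

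Libraries held 21516819 to 43014516 counts. The fast myosin gene Myh4 was the most counted gene in all 24 at 4.91% to 9.27% of counts. Numb lay at 15.3 to 25.3 CPM (counts scaled to library size, with TMM factors over the 24 libraries) and Numbl at 2.67 to 6.49 CPM; counts over whole genes do not read the floxed exons separately. Esr1, whose ligand-binding domain is part of MCM, was at 399 to 1951 CPM in transgene libraries and 22.8 to 42.1 CPM in flox libraries. The slow myosin gene Myh7 lay at 9.97 to 759 CPM in transgene males after tamoxifen and 61.0 to 917 CPM in transgene males after vehicle, a wider spread than the 831 to 1101 CPM of flox males after tamoxifen and the 656 to 769 CPM of flox males after vehicle. Library 1 of the transgene males after tamoxifen held the lowest level of all 24 for Atp2a1, Ryr1, Cacna1s, Cacng1, Srl, Mrln and Camk2g, and values without it are given where it decides a result.

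The coding sequences of the pump's peptide regulators are shown because, averaged over both sexes and genotypes, Sln rose and Mrln fell after tamoxifen. The change of Sln was not called without library 1 of the transgene males after tamoxifen. Both coding sequences are short, with the start and stop codons in capitals (GENCODE M21 transcripts, GRCm38, plus strand). Mrln spans chr10:70219496-70219636, with 46 codons before the stop, and Sln spans chr9:53853473-53853568, with 31 codons before the stop.
Mrln: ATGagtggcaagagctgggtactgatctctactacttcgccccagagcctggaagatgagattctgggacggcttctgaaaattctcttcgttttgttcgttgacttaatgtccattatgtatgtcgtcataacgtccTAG
Sln: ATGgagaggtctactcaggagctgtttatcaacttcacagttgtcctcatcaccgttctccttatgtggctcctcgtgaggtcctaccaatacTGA
Mrln encodes myoregulin and Sln sarcolipin, single-pass peptides of the sarcoplasmic reticulum that bind the fast SERCA pump and inhibit it.

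Levels of the members spanned several orders of magnitude per kb of exon. Atp2a1, the fast SERCA pump (chromosome 7, minus strand), was the highest, with a mean of 9851 CPM per kb over the 24 libraries, 68.2% of the summed level of the 38 genes. Casq1, a calsequestrin gene, followed at 1484 CPM per kb. Next were the luminal histidine-rich protein gene Hrc at 396, the sarcalumenin gene Srl at 337 and the ryanodine receptor gene Ryr1 at 271 CPM per kb. Ryr1 was the highest of the release channel genes, while Ryr3 was the lowest member at 0.0899 CPM per kb and the cardiac-type Casq2 stood at 22.1.

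The voltage sensor genes, also as means per kb, ran from the pore subunit Cacna1s at 239 CPM per kb to Cacng1 at 180, the adaptor Stac3 at 108, Cacnb1 at 43 and Cacna2d1 at 37.5. Of the triad junction genes, Jsrp1 had 250, the junctophilin Jph2 225, the triadin gene Trdn 159, the mitsugumin gene Sypl2 121, Jph1 96.3 and Asph, the gene of junctin and aspartyl hydroxylase, 15 CPM per kb. The level of Cacna1s is uncertain because 20% of its exon bases lie under an annotated gene on the other strand, and the same holds for 21.9% of Atp2a1 and 14.7% of Asph, since no source used here gives the strand setting of the counting. Of the genes of store-operated entry and calcium exit, the store sensor Stim1 had 27.6 and Stim2 8.74, the entry channel Orai1 14.1 and Orai3 5.30, the sodium-calcium exchanger Slc8a3 17.5, the plasma membrane pumps Atp2b1 and Atp2b4 5.51 and 1.10, and the mitochondrial uniporter Mcu 5.64 CPM per kb. The inositol trisphosphate receptors Itpr1 and Itpr2 lay at 1.63 and 0.638 CPM per kb. Among sensors and kinases, Calm3 had 150, the calcium-binding S100a1 98.2, Calm2 91.9, Camk2a 64.2, Camk2g 34.5, Camk2b 21.3 and Camk2d 2.41 CPM per kb, and Fkbp1a, which stabilises the closed ryanodine receptor, had 27.0. The calmodulin genes encode the same protein, and reads of near-identical copies are counted in a way not stated, so their split is uncertain.

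**Figure D1:**
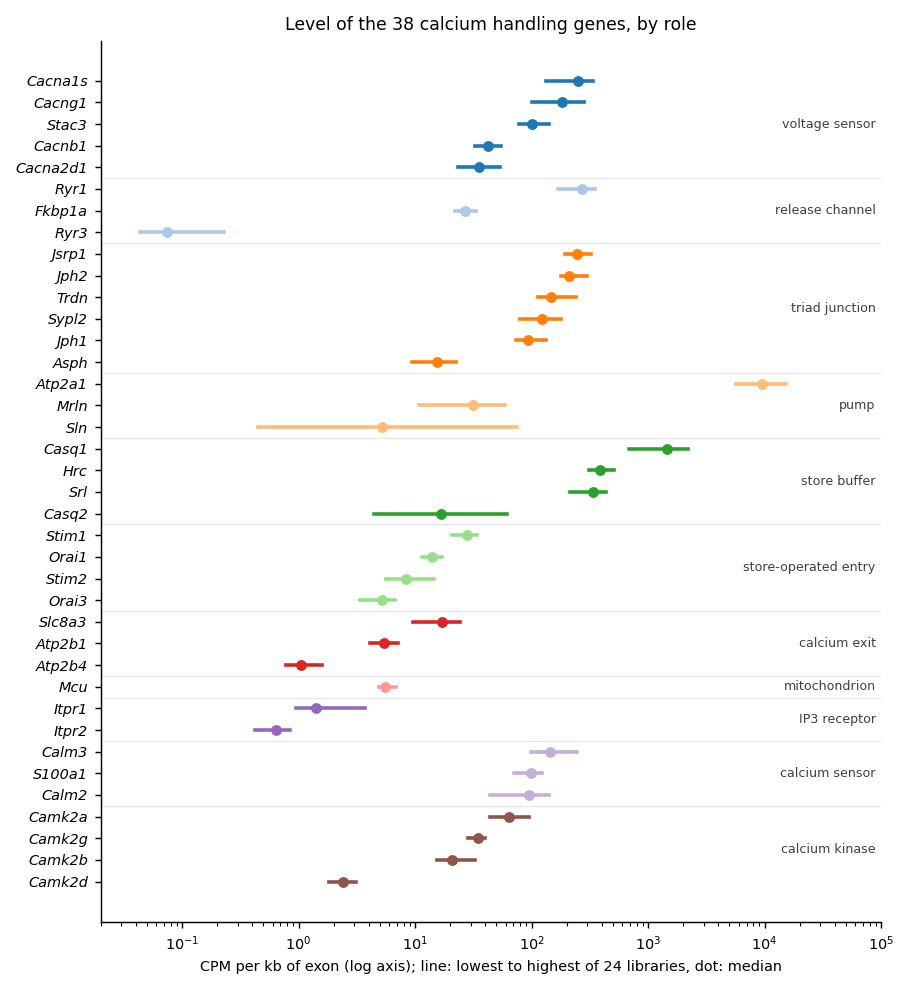
CPM per kb of exon (log axis) of the 38 genes, grouped by role, with a dot for the median and a line from the lowest to the highest of the 24 libraries. Atp2a1 lies highest at a median of 9565 and Ryr3 lowest at 0.0737, and Sln has the widest line, from 0.445 to 75.3 CPM per kb.

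The spread across libraries was uneven. The highest library exceeded the lowest by 169-fold for Sln, 13.8-fold for Casq2, 5.51-fold for Mrln, 5.25-fold for Ryr3 and 3.92-fold for Itpr1. For Atp2a1 the ratio was 2.72, for Ryr1 2.07, and for Camk2g and Mcu it was 1.42 and 1.43, the smallest of the 38. Sln rests on as few as 16 counts in 1 library and Ryr3 on 22, against 542883 or more for Atp2a1.

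Averaged over the 4 pairs of groups of the same sex and genotype (strata), tamoxifen changed 8 of the 38 genes, or 21.1%, where 8.83% of all 16670 genes tested passed the same threshold (adjusted p under 0.05, edgeR quasi-likelihood test with Benjamini-Hochberg adjustment over all genes). Sln, Itpr2 and Slc8a3 rose. Mrln, Itpr1, Camk2a, Srl and Stac3 fell. The median log2 change of the 38 was -0.06, against 0.00 over all genes, and 14 of the 38, or 36.8%, had an unadjusted p under 0.05 against 22.3% of all genes. In bulk muscle, fewer cells of a type and less RNA per cell cannot be told apart. The mean includes flox animals, which have no recombinase, so it describes the drug with and without recombination together.

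Sln, the sarcolipin gene, had 99.2, 20.1 and 19.3 CPM in transgene females after tamoxifen, against 4.62, 2.40 and 7.95 after vehicle. In flox males it had 12.5, 6.46 and 13.3 CPM after tamoxifen, against 1.75, 0.982 and 1.76 after vehicle. In both strata the lowest library after tamoxifen lay above the highest after vehicle. Flox females had 8.61, 8.64 and 13.1 CPM after tamoxifen, against 3.38, 10.6 and 10.5 after vehicle, and these groups overlapped. Transgene males had 7.28, 0.748 and 0.586 CPM after tamoxifen, against 1.54, 2.28 and 1.12 after vehicle, so that 1 tamoxifen library lay above and the other 2 below every vehicle library. Over the 4 strata the log2 change was 1.80 ± 0.42 (SE; adjusted p = 0.0118). Without library 1 of the transgene males after tamoxifen it was 1.27 (adjusted p = 0.0760), which did not pass.

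Mrln, the myoregulin gene, moved the other way. Transgene females had 27.6, 32.7 and 30.4 CPM after tamoxifen, against 56.9, 54.5 and 43 after vehicle. Flox males had 25.7, 21.6 and 23.7 CPM after tamoxifen, against 35.5, 36.2 and 40.6 after vehicle. Transgene males had 12.7, 31.4 and 25.6 CPM after tamoxifen, against 33.8, 38.7 and 51.1 after vehicle. In these 3 strata every tamoxifen library lay below every vehicle library. In flox females the groups overlapped, with 55.6, 48.6 and 56.2 CPM after tamoxifen and 70.2, 43.6 and 58.3 after vehicle. The log2 change over the 4 strata was -0.59 ± 0.12 (adjusted p = 0.00426), and Mrln was called in all 31 alternative fits.

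The inositol trisphosphate receptors, which release calcium from internal stores outside the triad, moved in opposite directions. Itpr1 had 19.7, 33.4 and 17.5 CPM in transgene males after tamoxifen, against 54.4, 36.6 and 68.7 after vehicle. In flox males it had 21.4, 19.8 and 17.8 CPM after tamoxifen, against 35.7, 38.9 and 38.7 after vehicle. The male groups did not overlap. In females the levels lay close together, at 26.4, 25.8 and 24.2 CPM after tamoxifen against 31.4, 32.3 and 24.2 after vehicle in transgene animals, and 25.4, 21.7 and 24.7 against 29.2, 24.1 and 23.1 in flox animals. Over the 4 strata Itpr1 fell by 0.60 ± 0.11 on the log2 scale (adjusted p = 0.00118).

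Itpr2 had 12.3, 11.7 and 12.6 CPM in transgene females after tamoxifen, against 11.6, 10.1 and 9.50 after vehicle. Transgene males had 10.7, 9.60 and 9.57 CPM after tamoxifen, against 7.26, 8.46 and 7.0 after vehicle. Flox males had 11.6, 12.5 and 11.4 CPM after tamoxifen, against 8.07, 6.52 and 6.26 after vehicle. Tamoxifen libraries lay above vehicle libraries in these 3 strata. Flox females overlapped, with 8.17, 8.53 and 8.27 CPM after tamoxifen and 7.95, 9.30 and 7.66 after vehicle. The log2 change over the 4 strata was 0.35 ± 0.05 (adjusted p = 0.000220), and both receptors were called in all 31 alternative fits.

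These receptors are also expressed outside fibres, so markers of other cells were read beside them. The summed level of 5 endothelial markers ran from 148 to 211 CPM in transgene males after tamoxifen and from 177 to 211 CPM after vehicle, and from 133 to 176 CPM in flox males after tamoxifen against 135 to 246 CPM after vehicle. In females these sums were 219 to 249 CPM after tamoxifen against 228 to 272 after vehicle in transgene animals, and 166 to 229 against 207 to 236 in flox animals. Of the 5 endothelial markers 1 was called over the strata, Kdr with -0.48 ± 0.15 (adjusted p = 0.0478), and of 5 immune markers Cd68 fell by 0.64 ± 0.20 (adjusted p = 0.0446). Summed smooth muscle markers ran from 121 to 224 CPM after tamoxifen and from 120 to 239 CPM after vehicle over all strata, with none called. Other sums separated the treatments in the male strata. In flox males the sum of the 5 immune markers was 5.82 to 9.10 CPM after tamoxifen against 11.3 to 16.9 after vehicle, that of 4 satellite cell markers 10.8 to 12 CPM against 9.18 to 10.3, and that of 6 fast-fibre markers 107486 to 118899 CPM against 95954 to 104950. In transgene males the sum of 4 fibroblast markers was 320 to 367 CPM after tamoxifen against 213 to 310 after vehicle. These were the sums that separated, and the other marker sums overlapped in the male strata. Of all genes tested, 28.0% did not overlap between treatments in flox males and 13.8% in transgene males. None of the endothelial, immune, smooth muscle, satellite cell or fibroblast markers was at 0 throughout a group, and the part of these cells in the Itpr1 and Itpr2 results was not tested.

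Slc8a3, the sodium-calcium exchanger of skeletal muscle and brain, had 87.7, 110 and 101 CPM in flox males after tamoxifen, against 51.2, 56.7 and 76.4 after vehicle, with no overlap. In the other 3 strata the groups overlapped, with means of 115 ± 16.1 CPM after tamoxifen against 92.1 ± 27.1 after vehicle in transgene females, 111 ± 15 against 96.3 ± 19.8 in flox females and 87.6 ± 5.61 against 83.7 ± 14.9 in transgene males (SD, n = 3). Its log2 change over the 4 strata was 0.32 ± 0.10 (adjusted p = 0.0418). This call was lost in 18 of 31 alternative fits, 17 of which left out 1 library, with adjusted p up to 0.126, although the log2 change stayed between 0.29 and 0.41.

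Stac3 encodes the adaptor that brings the voltage sensor to the triad and is needed for its coupling to the ryanodine receptor. It had 225, 255 and 255 CPM in transgene females after tamoxifen, against 326, 317 and 295 after vehicle. In flox females it had 322, 325 and 324 CPM after tamoxifen, against 359, 350 and 352 after vehicle. In flox males it had 199, 206 and 204 CPM after tamoxifen, against 255, 257 and 226 after vehicle. Groups did not overlap in these 3 strata and overlapped in transgene males, with 252, 249 and 242 CPM after tamoxifen and 266, 249 and 276 after vehicle. The fall of 0.21 ± 0.04 on the log2 scale had an adjusted p of 0.000599 and held in all 31 alternative fits.

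Camk2a encodes a subunit of calcium/calmodulin-dependent kinase II, and the same locus makes a muscle anchoring protein of the sarcoplasmic reticulum from an internal start. It had 375, 444 and 401 CPM in transgene females after tamoxifen, against 529, 612 and 493 after vehicle. Transgene males had 336, 488 and 476 CPM after tamoxifen, against 561, 501 and 709 after vehicle. Flox males had 330, 330 and 350 CPM after tamoxifen, against 470, 445 and 467 after vehicle. No overlap was seen in these strata, whereas flox females had means of 530 ± 73.1 after tamoxifen and 530 ± 8.75 CPM after vehicle. Over the 4 strata Camk2a fell by 0.33 ± 0.07 on the log2 scale (adjusted p = 0.00386), in all 31 alternative fits. The other kinase genes were not called, with log2 changes of -0.15 for Camk2d, -0.08 for Camk2b and 0.04 for Camk2g.

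Srl, whose product sarcalumenin binds calcium inside the sarcoplasmic reticulum, had 1265, 1274 and 1358 CPM in flox males after tamoxifen, against 1542, 1581 and 1747 after vehicle. In transgene males it had 1140, 1682 and 1650 CPM after tamoxifen, against 1789, 1752 and 2018 after vehicle. Transgene females had 1793, 2185 and 2036 CPM after tamoxifen, against 2237, 2301 and 2272 after vehicle. Tamoxifen libraries lay below vehicle libraries in these 3 strata, and flox females overlapped. The log2 change over the strata was -0.23 ± 0.06 (adjusted p = 0.0207), and -0.20 (adjusted p = 0.0638) without library 1 of the transgene females after tamoxifen.

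The release channel gene Ryr1, the fast pump gene Atp2a1, the pore gene Cacna1s and Casq1 did not pass over the 4 strata. Ryr1 came close, at -0.25 ± 0.08 (adjusted p = 0.0515). Its means were 5072 ± 423 CPM after tamoxifen against 6524 ± 866 after vehicle in transgene females (SD, n = 3). They were 5655 ± 1076 against 6773 ± 482 in flox females and 4940 ± 1196 against 6460 ± 987 in transgene males. In flox males Ryr1 did not fall, with 5968 ± 190 against 5971 ± 443 CPM. Atp2a1 had -0.11 ± 0.07 (adjusted p = 0.417), Cacna1s 0.22 ± 0.09 (adjusted p = 0.122) and Casq1 -0.08 ± 0.08 (adjusted p = 0.616). Casq2 had 0.52 ± 0.26 (adjusted p = 0.251) and Ryr3 -0.28 ± 0.17 (adjusted p = 0.366), the members with the next largest rise after Sln and the largest uncalled fall. The remaining members lay between -0.17, for Orai3 and Jsrp1, and 0.09, for Sypl2. With the slow-fibre level of each library in the fit, 12 members were called, with 1843 of all genes called against 1472 without that term, and Casq2 was among the 12 at 0.51 (adjusted p = 0.00283). The summed level of the 6 slow-fibre markers was 2728 to 6058 CPM after tamoxifen against 873 to 4709 after vehicle in transgene females, 1402 to 4496 against 3595 to 3919 in flox females, 73.9 to 1830 against 232 to 2223 in transgene males and 1829 to 2312 against 1493 to 1933 in flox males.

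**Figure D2:**
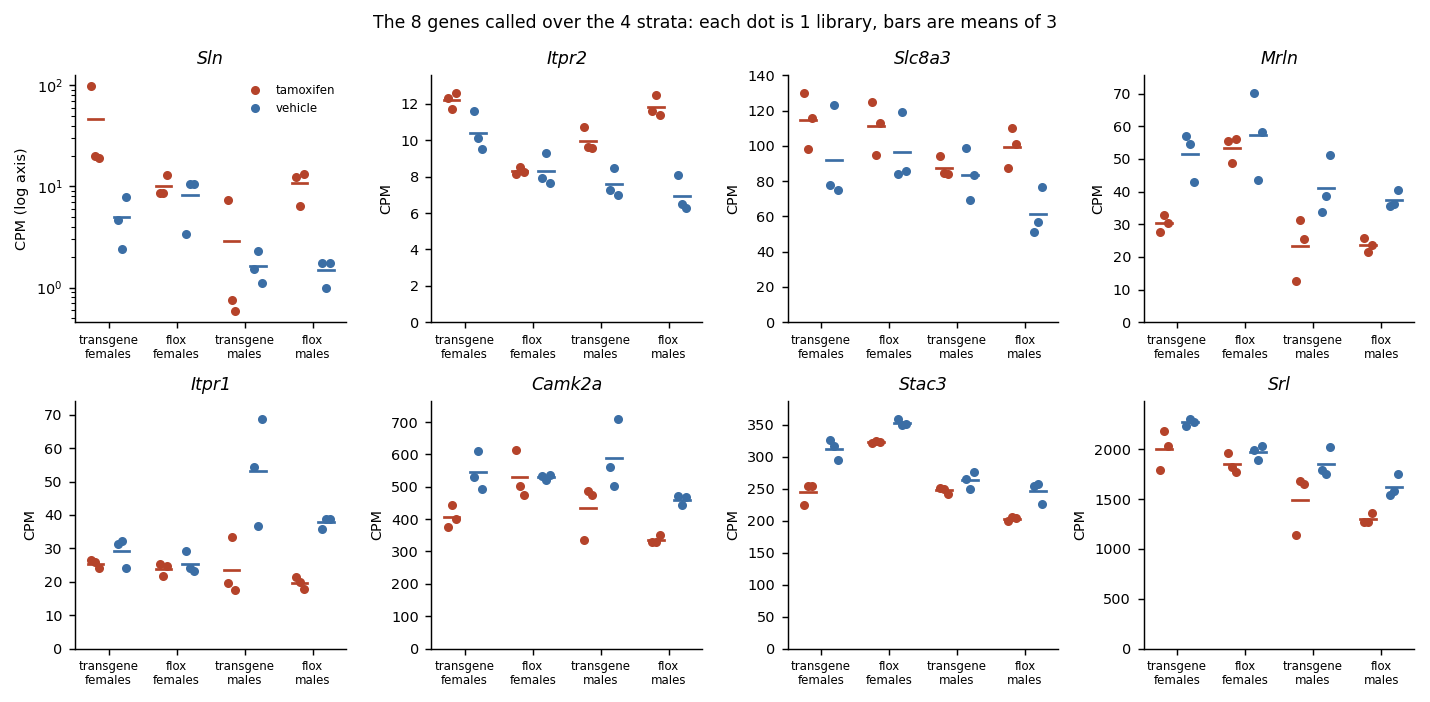
CPM per library of the 8 genes called over the 4 strata, with tamoxifen (red) left of vehicle (blue) in each stratum, dots for the 3 libraries of a group and bars for their means; the axis of Sln is logarithmic and the others start at 0. Mrln, Camk2a and Srl lie lower after tamoxifen without overlap in 3 strata, and flox females overlap for all of the 8 genes except Stac3.

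Of 75 companion genes of calcium handling, excitability and calcineurin signalling, 72 were tested over the strata and 10 were called, 1 higher and 9 lower, with a median log2 change of -0.06. In this comparison 8.83% of all genes were called. Ppp3ca, the catalytic subunit of calcineurin, rose by 0.27 ± 0.07 (adjusted p = 0.0138). Nfatc1, Nfatc2 and Nfatc3, transcription factors that calcineurin activates, had log2 changes of -0.18, -0.32 and -0.22. Slc8a1, the cardiac-type exchanger, had -0.47 ± 0.12 (adjusted p = 0.0165), opposite in sign to Slc8a3. Ank1, whose muscle isoform anchors the sarcoplasmic reticulum, had -0.37 ± 0.06 (adjusted p = 0.000350), and the triad and scaffold genes Speg and Homer1 and the uniporter regulator gene Mcur1 had -0.16, -0.26 and -0.16.

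RefSeq promoter windows were read for the called genes to show the sequence before their starts. The table held an entry for 25 of the 38 members and for 3 of the 8 called genes. The 250 bases before the transcript start (GRCm38.p6) are given in the direction of transcription, with each E-box CANNTG, the letters bound by myogenic factors, in capitals. Mrln lies at chr10:70204414-70204663 on the plus strand, Itpr2 at chr6:146502224-146502473 on the minus strand and Slc8a3 at chr12:81333181-81333430 on the minus strand.
Mrln: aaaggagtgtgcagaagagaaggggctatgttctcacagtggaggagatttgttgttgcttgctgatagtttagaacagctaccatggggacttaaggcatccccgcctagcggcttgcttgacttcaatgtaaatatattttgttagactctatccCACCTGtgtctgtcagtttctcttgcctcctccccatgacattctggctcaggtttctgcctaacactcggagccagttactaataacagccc
Itpr2: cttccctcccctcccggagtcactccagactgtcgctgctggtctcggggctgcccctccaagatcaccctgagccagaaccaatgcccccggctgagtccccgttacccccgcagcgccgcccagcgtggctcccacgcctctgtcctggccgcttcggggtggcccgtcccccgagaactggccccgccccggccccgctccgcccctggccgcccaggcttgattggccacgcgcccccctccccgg
Slc8a3: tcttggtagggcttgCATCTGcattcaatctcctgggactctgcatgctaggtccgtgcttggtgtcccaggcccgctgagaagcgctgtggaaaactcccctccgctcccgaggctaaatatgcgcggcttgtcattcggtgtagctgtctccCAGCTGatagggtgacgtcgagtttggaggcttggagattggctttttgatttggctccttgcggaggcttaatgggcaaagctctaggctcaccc
The Mrln window holds 1 E-box, that of Slc8a3 holds 2 and that of Itpr2 holds 0; 15 of the 25 member windows and 66% of all 27025 windows of this length hold at least 1. The oestrogen response element GGTCANNNTGACC was in 0 of the 25 member windows and in 0.0629% of all windows, and its arm GGTCA, contained in the full element, was in 6 of 25 and in 34.9% of all, with all motifs searched on both strands. None of the 3 printed windows held either of them, and the MEF2 motif was in 1 of the 25 and in 3.01% of all windows. These matches describe the letters of these windows alone.

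Within single strata few members passed. In transgene females, 1 of 38 genes was called, with 1.32% of all genes called. It was Mrln, with a log2 change of -0.76 ± 0.12 (adjusted p = 0.0275). This call was lost when any of 4 libraries was left out: the adjusted p was 0.109 and 0.0926 without vehicle library 1 or 2, and 0.0914 and 0.0784 without tamoxifen library 1 or 3, with log2 changes of -0.68, -0.72, -0.69 and -0.76. It was also lost in a fit on all 24 libraries (-0.77, adjusted p = 0.109). At an unadjusted p under 0.05 there were 11 members, 2 higher and 9 lower, or 28.9%, against 16.8% of all genes. The 2 groups did not overlap for 14 members, 3 higher and 11 lower after tamoxifen, or 36.8%, against 22.4% of all genes. The 3 higher ones were Casq2, Itpr2 and Sln, and the lower ones included Atp2a1, Ryr1, Cacnb1, Cacng1, Fkbp1a, Jsrp1 and Orai3. The largest rises were Sln with 3.22 ± 0.95 (adjusted p = 0.213), Casq2 with 0.90 ± 0.42 (adjusted p = 0.376) and Ryr3 with 0.78 ± 0.35 (adjusted p = 0.311). After Mrln the largest falls were Camk2a with -0.41 (adjusted p = 0.110) and Ryr1 with -0.35 (adjusted p = 0.186). With the slow-fibre level of each library in the fit, Casq2 had 0.44, Sln 2.37, Ryr3 0.98, Camk2a -0.27 and Ryr1 -0.27, none called. Mrln had -0.63 (adjusted p = 0.0499) in that fit, where 107 of all genes were called against 187.

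In flox females, 0 of 38 genes were called by edgeR, by DESeq2 or by limma-voom, with 0.131% of all genes called by edgeR. An unadjusted p under 0.05 was found for 2 members, or 5.26%, against 8.65% of all genes. Groups did not overlap for 5 members, or 13.2%, against 14.2% of all genes, namely Calm2, Mcu and Orai1 with higher and Jsrp1 and Stac3 with lower tamoxifen levels. Sln, with 0.32, Calm2, with 0.30, and Orai1, with 0.22, had the largest positive log2 changes, and Ryr1, with -0.26, Cacna2d1, with -0.23, and Casq2, with -0.17, the largest negative ones. Calm2 had 147, 138 and 173 CPM after tamoxifen, against 121, 134 and 117 after vehicle.

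In transgene males, 0 of 38 genes were called by edgeR, and 1 each by DESeq2 and limma-voom, Itpr1 in both, with 0.889% of all genes called by edgeR. DESeq2 called 328 and limma-voom 131 of all genes, against 139 by edgeR. An unadjusted p under 0.05 was found for 8 members, or 21.1%, against 10.1% of all genes. Itpr1 came closest, at -1.18 ± 0.26 (adjusted p = 0.0789), and it passed without vehicle library 2 (-1.39, adjusted p = 0.0284) or without tamoxifen library 2 (-1.52, adjusted p = 0.0117). Groups did not overlap for 5 members, or 13.2%, against 13.8% of all genes: Itpr2 was higher, and Camk2a, Itpr1, Mrln and Srl were lower after tamoxifen. Mrln and Ryr3 had the next largest falls, -0.82 and -0.70. The rises of Casq2 and Sln, 0.88 and 0.80, rested on 1 library: without library 1 of the tamoxifen group they were -0.05 and -1.30. With the slow-fibre level of each library in the fit, Casq2 had 1.26 (adjusted p = 0.0454) and Sln 0.93 (adjusted p = 0.536). In that fit 226 of all genes were called, against 139 without that term.

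In flox males, 2 of 38 genes were called, both higher, or 5.26%, with 2.89% of all genes called. Itpr2 rose by 0.76 ± 0.12 (adjusted p = 0.00575), and this held in all 18 alternative fits. Slc8a3 rose by 0.70 ± 0.15 (adjusted p = 0.0317), and this call was lost when any of 5 of the 6 flox male libraries was left out, at log2 changes of 0.58 to 0.77 and adjusted p of 0.0505 to 0.138. An unadjusted p under 0.05 was found for 14 members, 4 higher and 10 lower, or 36.8%, against 17.5% of all genes. Groups did not overlap for 21 members, 9 higher and 12 lower, or 55.3%, against 28.0% of all genes. Cacna1s was among the higher, with 1678, 1615 and 1726 CPM after tamoxifen against 1101, 1239 and 951 after vehicle, a log2 change of 0.61 ± 0.20 (adjusted p = 0.131). Sln had 2.86 ± 0.84 (adjusted p = 0.113), and 2.86 (adjusted p = 0.00102) when library 1 of the transgene males after tamoxifen, which shares only the estimate of spread, was left out. Likewise Mrln had -0.66 (adjusted p = 0.25) and passed at 0.0292 without that library. The largest falls were Ryr3 with -1.08 ± 0.35 (adjusted p = 0.119) and Itpr1 with -0.94 ± 0.26 (adjusted p = 0.0882). Ryr3 had 1.70, 0.901 and 1.79 CPM after tamoxifen, against 2.27, 2.70 and 4.37 after vehicle.

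Fitted on the 6 flox male libraries alone, 9 members were called, 4 higher and 5 lower, and the calls over all genes numbered 917, against 452 in the fit of 12. Of the 71 companion genes tested in flox males, 4 were called in the fit of 12, with 2.89% of all genes called. The mitochondrial uptake gene Micu3 and Ppp3ca rose by 0.53 and 0.55, and Ank1 and Mcur1 fell by 0.64 and 0.57 on the log2 scale. No companion gene was called in the other 3 strata by edgeR, where 15, 5 and 5 had an unadjusted p under 0.05 in transgene females, flox females and transgene males. Of all genes 16.8%, 8.65% and 10.1% did so in the same order.

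**Figure D3:**
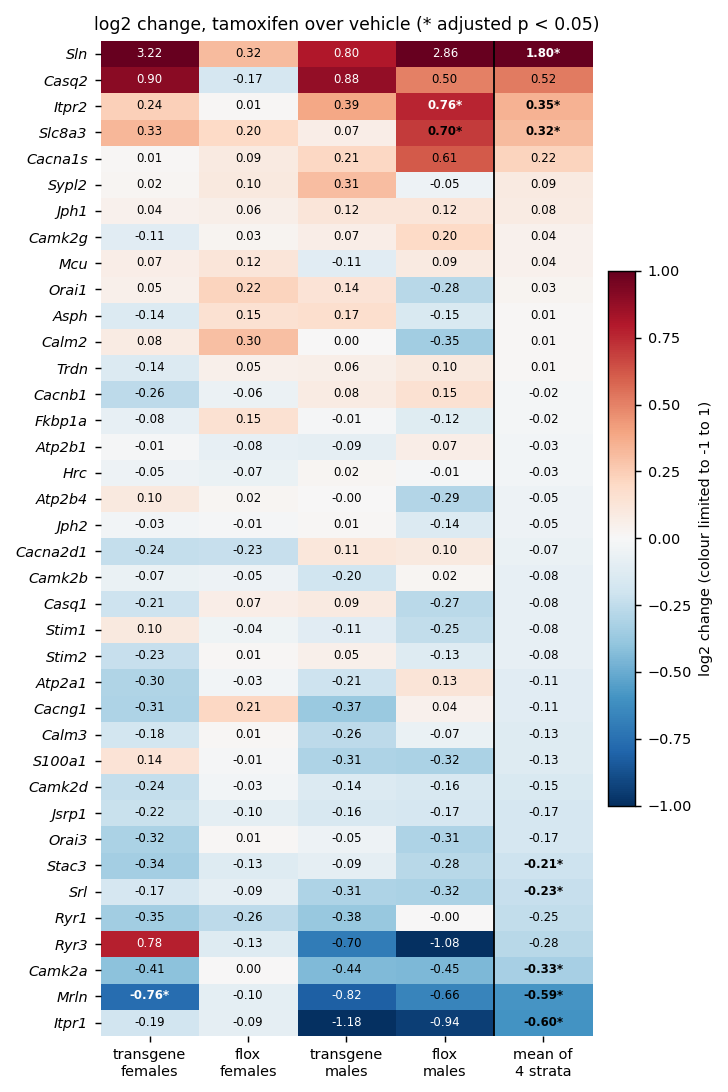
log2 changes of tamoxifen over vehicle for the 38 genes (rows, ordered by the mean of the strata) in 4 strata and as their mean, from red (higher after tamoxifen) to blue (lower), with stars at an adjusted p under 0.05. The 8 starred means run from 1.80 for Sln to -0.60 for Itpr1, and 3 single-stratum cells carry a star.

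The response of transgene animals minus that of flox animals sets the effect of tamoxifen with the recombinase against its effect without it. Transgene and flox females were deposited in a table each, so that in the female difference, and in its share of the difference over both sexes, the deposited table and the genotype cannot be told apart, although each response was taken within a table. In females 0 of 38 genes were called by edgeR, DESeq2 or limma-voom, with 0% of all genes called by edgeR, and 6 members, or 15.8%, had an unadjusted p under 0.05 against 7.54% of all genes. In males 0 of 38 were called by all 3 tools, with 0.0128% of all genes called, and 2 members, or 5.26%, had an unadjusted p under 0.05 against 8.25% of all genes. Over both sexes the count was also 0 by all 3 tools, with 0.0120% of all genes called, and 2 members, or 5.26%, had an unadjusted p under 0.05 against 8.01% of all genes.

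In females the largest differences were 2.91 ± 1.10 for Sln (adjusted p = 0.596), 1.07 ± 0.57 for Casq2 (adjusted p = 0.760) and 0.90 ± 0.46 for Ryr3 (adjusted p = 0.706), and on the negative side -0.66 ± 0.22 for Mrln (adjusted p = 0.483), -0.52 ± 0.19 for Cacng1 (adjusted p = 0.524) and -0.41 ± 0.15 for Camk2a (adjusted p = 0.543). In males Orai1 had 0.42 ± 0.12 (adjusted p = 0.334), with Ryr3 and Casq2 at 0.38 each, and Sln -2.06 ± 1.17 (adjusted p = 0.689), Slc8a3 -0.63 ± 0.22 (adjusted p = 0.459) and Cacng1 -0.40. Without library 1 of the transgene males after tamoxifen, Sln had -4.15 (adjusted p = 0.0384) and Casq2 -0.54. The differences for Sln thus had opposite signs in the sexes, and over both it was 0.41 ± 0.84 (adjusted p = 0.970). Over both sexes Ryr3 and Casq2 had 0.63 and 0.71, and Cacng1, Mrln and Atp2a1 -0.47, -0.42 and -0.32, none of which passed.

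The difference between the sexes, the male response minus the female response over both genotypes, was called for 1 of 38 genes, with 0.708% of all genes called. Itpr2 rose more in males, by 0.46 ± 0.11 (adjusted p = 0.0439), and this call was lost in 22 of 29 alternative fits, 21 of which left out 1 library, with adjusted p up to 0.133. Itpr1 had -0.91 ± 0.21 (adjusted p = 0.0529), and passed without library 2 of the transgene males after vehicle (-1.02, adjusted p = 0.0104) or after tamoxifen (-1.09, adjusted p = 0.00232). Ryr3, with -1.21 ± 0.35 (adjusted p = 0.126), and S100a1, with -0.37, had the other large negative differences, and Cacna1s and Cacna2d1 positive ones of 0.37 and 0.34. Males and females lie in separate deposited tables, so sex and table cannot be told apart, although each response was taken within a table. Of the companion genes, Mcur1 was called at -0.38 ± 0.08 (adjusted p = 0.0242).

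Transgene and flox animals share a table in males, where they were compared directly. After tamoxifen, 4 of 38 genes were called, all higher in transgene males, or 10.5%, with 5.23% of all genes called. Asph had 235, 292 and 297 CPM in transgene males, against 169, 150 and 176 in flox males, a log2 difference of 0.73 ± 0.11 (adjusted p = 0.00322). Its products anchor calsequestrin at the triad or hydroxylate other proteins, and the difference held in all 18 alternative fits. Casq1 had 1942, 2879 and 2717 CPM in transgene males, against 1337, 1500 and 1576 in flox males, a difference of 0.77 ± 0.16 (adjusted p = 0.0176). Sypl2, a triad protein that shapes the tubule contact, had 505, 589 and 665 CPM in transgene males, against 364, 387 and 368 in flox males, a difference of 0.65 ± 0.13 (adjusted p = 0.0128). Orai1, the pore of store-operated entry, had 39.6, 34.4 and 35.7 CPM in transgene males, against 27.9, 28.6 and 26.3 in flox males, a difference of 0.40 ± 0.08 (adjusted p = 0.0169). For all 4 genes the groups did not overlap.

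The groups after tamoxifen did not overlap for 11 members, 10 higher and 1 lower in transgene males, or 28.9%, against 27.6% of all genes, and 11, or 28.9%, had an unadjusted p under 0.05 against 20.8% of all genes. The 1 lower was Itpr2, at -0.25 ± 0.12 (adjusted p = 0.25). Ryr1 and Cacna1s had -0.28 and -0.29, and Sln -1.91 ± 0.78 (adjusted p = 0.200), which was -4.00 (adjusted p = 0.000811) without library 1 of the transgene males after tamoxifen. The slow-fibre level, the mean log2 CPM of the slow-fibre markers, was 7.98, 6.31 and 3.01 in these transgene males, against 8.21, 8.17 and 7.87 in flox males. With this level in the fit, 3 members were called, with 570 of all genes called against 817. Asph then had 0.59 (adjusted p = 0.0124) and Orai1 0.45 (adjusted p = 0.0274). Casq1 was not called in that fit (0.51, adjusted p = 0.0672). It was also not called without transgene tamoxifen library 2 or 3 (adjusted p = 0.0605 and 0.0661) or flox tamoxifen library 1, 2 or 3 (0.0743, 0.0648 and 0.0554). Orai1 was not called without flox tamoxifen library 1, 2 or 3 (adjusted p = 0.0513, 0.0517 and 0.0772), and Sypl2 was not called without transgene library 3 (0.0503) or flox library 3 (0.0556) of the tamoxifen groups. Of the 71 companion genes tested here, 6 were called, 5 higher and 1 lower in transgene males, with 5.23% of all genes called. The higher ones included Kcnj12, Ank1, Tmem38b and Mcur1, by 0.68, 0.73, 0.39 and 0.61.

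After vehicle, 0 of 38 genes were called by edgeR or limma-voom and 2 by DESeq2, with 0.947% of all genes called by edgeR. DESeq2 called 594 of all genes here, against 148 by edgeR. An unadjusted p under 0.05 was found for 10 members, all higher in transgene males, or 26.3%, against 17.2% of all genes. The groups did not overlap for 9, also all higher, or 23.7%, against 23.0% of all genes. Asph had 244, 232 and 255 CPM in transgene males, against 197, 178 and 174 in flox males, a difference of 0.41 ± 0.11 (adjusted p = 0.0970). Cacng1, Itpr1 and Slc8a3 had the largest differences, 0.50, 0.49 and 0.44, and Ryr3, Casq2 and Atp2b4 the largest negative ones, -0.63, -0.19 and -0.15. The difference for Asph thus had the same sign after vehicle and after tamoxifen, and for Orai1 it was -0.02 (adjusted p = 0.922) after vehicle. Casq1 was also higher in transgene males after vehicle without overlap, at 2015 to 2835 CPM against 1700 to 1862. Sypl2 had means of 473 against 386 CPM, with overlap. Of the 38 genes 31 had a positive difference after vehicle, or 81.6%, against 47.7% of all genes. The single companion gene called after vehicle was Rem1, an inhibitor of calcium channels, at 1.28 to 1.37 CPM in transgene males against 2.79 to 4.37 CPM in flox males (-1.52 ± 0.22, adjusted p = 0.00666).

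**Figure D4:**
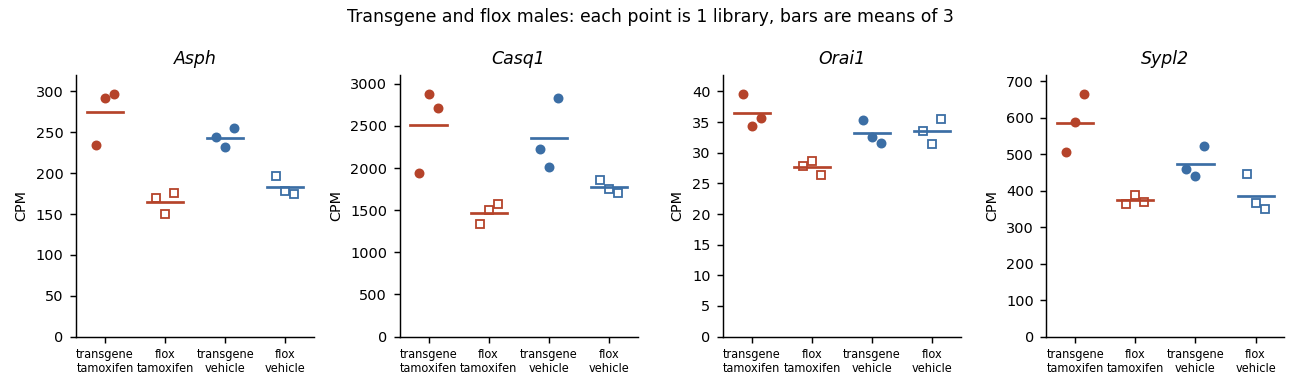
CPM per library of Asph, Casq1, Orai1 and Sypl2 in the 4 male groups, transgene (filled circles) left of flox (open squares) after tamoxifen (red) and after vehicle (blue), with bars at the means of 3 libraries and axes from 0. After tamoxifen the lowest transgene library lies above the highest flox library in each panel, and after vehicle Orai1 and Sypl2 overlap.

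Because the slow-fibre level differed so much between libraries of a group, each gene was also set against it within the 8 groups, a comparison added after the data were seen. The level is the mean log2 CPM of Myh7, Myl2, Myl3, Tnnc1, Tnni1 and Tnnt1, and it ran from 3.01 to 9.65. Of the 38 genes 15 changed with it, 2 higher and 13 lower, or 39.5%, with 8.27% of all 16670 genes called. A slope gives the log2 change per unit of this level.

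Casq2, the calsequestrin of cardiac and slow muscle, had the steepest called slope, 0.49 ± 0.05 (adjusted p = 1.00e-05). It had 97.1, 32.4 and 19.3 CPM in transgene males after tamoxifen, where Myh7 had 759, 214 and 9.97 CPM, and 24.9, 43.7 and 12.1 CPM after vehicle, where Myh7 had 415, 917 and 61.0 CPM. In each of these groups the libraries had the same order for both genes. S100a1 was the other called gene that rose, with a slope of 0.11 ± 0.02 (adjusted p = 0.00714). Its call was lost without library 1 of the transgene males after tamoxifen (adjusted p = 0.075). Sln had 0.62 ± 0.19 (adjusted p = 0.0506).

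With all libraries in the fit, the 13 that fell with a higher slow-fibre level included genes of each part of the triad and store. Among them the calls of Cacng1, Cacna1s, Ryr1, Atp2a1, Casq1, Calm2, Sypl2, Asph and Jph2 were lost without library 1 of the transgene males after tamoxifen. Only Stim2, Calm3, Camk2a and Jph1 kept theirs, so no voltage sensor, release channel, pump or store buffer gene that fell was still called. The steepest were Stim2, a sensor of store filling, at -0.18 ± 0.03 (adjusted p = 0.000936), Cacng1 at -0.16, Calm3 at -0.14 and Cacna1s at -0.13. Camk2a, Jph1 and Casq1 had -0.12 each, Ryr1 and Atp2a1 -0.11 each, Calm2 and Sypl2 -0.09 each, Asph -0.08 and Jph2 -0.07. Stim2 had 42.4, 58.7 and 74.2 CPM in transgene males after tamoxifen, in the reverse order of Casq2. The fast-fibre markers Myh4, Tnnt3 and Actn3 had slopes of -0.15, -0.11 and -0.21, and Myh1 had 0.43. Among 72 companion genes tested, 25 were called, 13 higher and 12 lower, where 8.27% of all genes were called. Among the 25 were the slow pump gene Atp2a2 at 0.79, Myoz2 at 0.70, the sodium pump subunit gene Atp1b1 at 0.53 and Rrad at 0.51. On the falling side was the fast-fibre buffer parvalbumin, Pvalb, at -0.13.

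Casq2, Stim2, Camk2a, Calm3 and Jph1 were called in all 29 alternative fits of the slope. Ryr1, Jph2 and Asph had adjusted p of 0.0467, 0.0439 and 0.0425, and their calls were lost in 16, 17 and 13 of the 29. Without library 1 of the transgene males after tamoxifen 5 members were called, the same ones that held in all fits. In that fit 525 of all genes were called, against 1379 with all libraries. Without library 3 of the transgene males after vehicle 8 members were called, against 15 with all libraries. The slope describes libraries and not conditions.

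**Figure D5:**
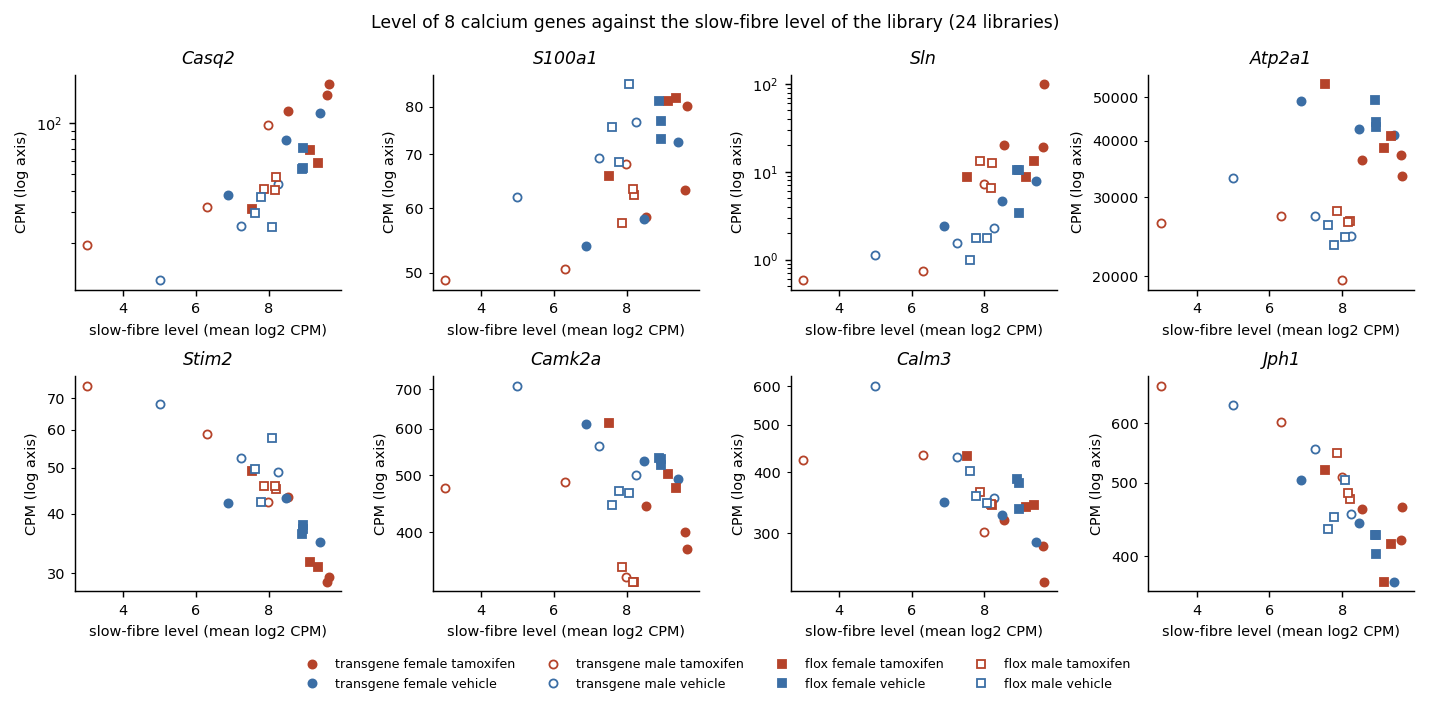
CPM (log axis) of 8 genes against the slow-fibre level (mean log2 CPM of 6 markers) in the 24 libraries, with circles for transgene and squares for flox animals, filled for females and open for males, red after tamoxifen and blue after vehicle. Casq2 rises from 19.3 to 97.1 CPM across the 3 transgene males after tamoxifen, and Stim2 falls from 74.2 to 42.4 CPM across the same libraries.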

How the data were processed

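The authors deposited raw counts of reads per gene, by Ensembl ID and not normalized, in 3 tables, with all males in 1 table and transgene and flox females in 1 each. The submitters' processing notes name STAR, featureCounts, limma, GRCm38 and mm10, without role or version. Of 54752 IDs, 54723 were matched to GENCODE M21 symbols. The 38 members and the lists of 75 matched companion and 45 marker genes were chosen with earlier results of these data known. Tests used edgeR 4.0.16 in R 4.3.3 (TMM, filterByExpr with minimum count 10 and minimum total 15, robust quasi-likelihood F-test), adjusted by Benjamini-Hochberg over all genes tested at a threshold of 0.05; the SE is the log2 change divided by the square root of F. Transgene and flox females were tested in their own 6 libraries, males in 12, and the pooled results and the slope in 24. Alternatives used DESeq2 1.42.0, limma-voom (limma 3.58.1), other scaling, no filter, the slow-fibre level as a covariate and each library left out in turn. The rule for named genes took the called ones and the 3 largest rises and falls of each comparison; other uncalled members were named after their values were seen. The labels do not say that libraries are separate animals, so p-values measure the spread between libraries. No 2 libraries of a group agreed within sampling noise. The fits were tested on simulated data. Some companion genes that passed are not reported here.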

Additional observations from a re-analysis of the deposited data

Results flagged for a closer look

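The tamoxifen response of Itpr2 differed between the sexes by 0.46 ± 0.11 on the log2 scale (male minus female, adjusted p = 0.0439, edgeR quasi-likelihood test), the one member for which a test of a difference between responses passed. Within strata its log2 change was 0.39 in transgene males and 0.76 in flox males, against 0.24 in transgene females and 0.01 in flox females. Its levels are low, 6.26 to 12.6 CPM over the 24 libraries, or 139 to 503 counts. The call of the sex difference was lost in 22 of 29 alternative fits, with adjusted p up to 0.133. Sex and deposited table cannot be told apart in it.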

How the results depend on the processing

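Leaving out 1 library at a time moved the number of members called within these limits: 0 to 2 in transgene females (1 with all libraries), 0 to 1 in transgene males (0), 1 to 6 in flox males (2), 0 to 1 for transgene minus flox males (0), 0 to 1 for transgene against flox males after vehicle (0), 2 to 9 after tamoxifen (4), 6 to 9 over the 4 strata (8), 0 to 2 for the sex difference (1) and 5 to 20 for the slow-fibre slope (15). The count stayed at 0 in flox females, for transgene minus flox females and for transgene minus flox animals over both sexes. DESeq2 called 4, 1, 6, 2 and 8 members in transgene females, transgene males, flox males and transgene against flox males after vehicle and after tamoxifen, and 2 for the sex difference. Of all genes DESeq2 called 679, 328, 876, 594 and 1312 in the same order, and 297 for the sex difference. The fit reported called 187, 139, 452, 148, 817 and 118 of all genes there. Without a filter 3 members were called in transgene females, 2 after vehicle and 0 for the sex difference, with 941, 327 and 151 of all genes. limma-voom called 1 member in transgene males, 7 after tamoxifen and 2 for the sex difference, with 131, 831 and 112 of all genes. The slow-fibre covariate gave 2 members in transgene males, 5 in flox males and 3 for the sex difference, with 226, 782 and 175 of all genes. A fit on 24 libraries gave 2 in transgene females, without Mrln, and one on 6 libraries 9 in flox males. Leaving out library 1 of the transgene males after tamoxifen together with library 3 of the flox males after vehicle, chosen after seeing the data, gave 12 members after tamoxifen. The counts over all genes in that fit, and for transgene females in the fit on 24 libraries, are not given here. In all, 11 values changed sign, none of them called. Leaving out 1 library gave -0.42 to 0.09 for Casq2 and -0.05 to 0.55 for Sln in flox females, -0.05 to 1.41 for Casq2 and -1.30 to 1.28 for Sln in transgene males, -0.54 to 0.91 for Casq2 in transgene minus flox males, -0.72 to 0.16 for Casq2 in transgene against flox males after vehicle, and -0.64 to 0.67 for Sln in transgene minus flox animals over both sexes, where 2 libraries gave a negative value (-0.20 and -0.64). limma-voom gave -0.04 and -0.20 for Sln in transgene males and over both sexes, and the covariate 0.09 for Casq2 after vehicle. The cause was not tested.

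Over all alternatives together, not only those that left out 1 library, counts over all genes ran from 37 to 941 in transgene females (187 in the fit reported), 3 to 329 in flox females (19), 27 to 328 in transgene males (139), 143 to 917 in flox males (452), 0 to 43 for transgene minus flox females (0), 0 to 77 for males (2), 1 to 19 for both sexes (2), 44 to 594 after vehicle (148), 280 to 1312 after tamoxifen (817), 82 to 297 for the sex difference (118) and 525 to 1914 for the slope (1379), and 1153 to 1843 over the strata (1472). Flox females carry the same replicate numbers in both treatments, but same-numbered libraries did not deviate together (r = -0.20, -0.03 and -0.10 across genes); with the replicate number as a block 0 members were called. Counting depth limits Ryr3, Sln and Itpr2 most.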
